A study of Mus musculus with 16 samples.

Results

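The integrin subunit genes *Itga3*, *Itgb1*, *Itga2*, *Itga5*, *Itgav*, *Itga9*, *Itgb3*, *Itgb5*, *Itgb6* and *Itgb8* were examined in mouse keratinocytes (MK) with and without integrin α3β1, to ask whether the mRNA of other integrin subunits differed where α3 was missing. They were chosen by symbol, and 9 of the 10 had a row among the 14474 genes of the count table. *Itgb8* had no row and was not analysed here. MKα3− is an immortalized keratinocyte line with no α3 subunit, and MKα3+ was derived from it by restoring α3 from the human gene. The cells grew at 33 °C on a collagen coat, in medium low in calcium. Each line was given laminin-332 (LN332, recombinant, 0.02 mg/mL) or the same volume of vehicle for 16 to 24 h. RNA-seq was run on 4 replicates of each of the 4 groups, which were vehicle-treated and LN332-treated MKα3− cells and vehicle-treated and LN332-treated MKα3+ cells. Each genotype was represented by a single line, so line and genotype cannot be told apart. The methods call the data points of cell culture work experimental replicates without saying whether they were separate cultures, so the p-values measure the spread between these samples, which may be technical in part.

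Integrins are receptors made of an α and a β subunit that bind the extracellular matrix and link it to the cytoskeleton. In basal keratinocytes α3β1 is a main receptor for LN332, the laminin of the epidermal basement membrane, while α2β1 binds collagen, α5β1 fibronectin and α9β1 tenascin-C. The αv subunit pairs with several β subunits, of which β6 is known for its appearance in wound epidermis and for activating latent TGF-β. Because β1 is shared by many α subunits and αv by many β subunits, the amount of one partner can bear on which receptors form.

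The promoters of 4 members are shown because the results turn on them. *Itga3* encodes the missing subunit, *Itgb1* its partner, *Itga2* was the member that passed the test, and *Itgb6* had the smallest unadjusted p for LN332. Each is 300 bases of GRCm38.p6 from RefSeq, read 5′ to 3′ on the strand of the gene and ending 50 bases past the transcription start. Their genes are *Itga3* (Entrez 16400) on chromosome 11, 95044475 to 95076844, *Itgb1* (Entrez 16412) on chromosome 8, 128685654 to 128733579, *Itga2* (Entrez 16398) on chromosome 13, 114833081 to 114932100, and *Itgb6* (Entrez 16420) on chromosome 2, 60598292 to 60722603. The promoter of *Itga3* is at chr11:95076665-95076964 (minus strand), *Itgb1* at chr8:128685404-128685703 (plus strand), *Itga2* at chr13:114932051-114932350 (minus strand) and *Itgb6* at chr2:60722554-60722853 (minus strand). For *Itga3* the start used lies inside the gene positions given above, not at their 5′ end, so the window is partly within the gene span. Capitals mark matches on either strand to AP-1 (TGANTCA), TEAD (GGAATG), Sp1 (GGGCGG) and ETS (CCGGAAG) motifs.
Itga3: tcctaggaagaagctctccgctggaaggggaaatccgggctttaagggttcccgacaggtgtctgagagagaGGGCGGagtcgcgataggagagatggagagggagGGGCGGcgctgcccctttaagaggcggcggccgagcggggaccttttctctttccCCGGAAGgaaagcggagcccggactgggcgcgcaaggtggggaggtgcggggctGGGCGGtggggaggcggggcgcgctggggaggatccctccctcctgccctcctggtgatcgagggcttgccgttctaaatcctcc
Itgb1: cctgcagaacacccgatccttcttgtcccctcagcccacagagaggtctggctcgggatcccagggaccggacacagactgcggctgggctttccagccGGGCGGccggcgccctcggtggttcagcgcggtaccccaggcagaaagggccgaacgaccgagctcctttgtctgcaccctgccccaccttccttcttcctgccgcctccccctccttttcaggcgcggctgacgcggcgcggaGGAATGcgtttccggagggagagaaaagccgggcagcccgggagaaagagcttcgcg
Itga2: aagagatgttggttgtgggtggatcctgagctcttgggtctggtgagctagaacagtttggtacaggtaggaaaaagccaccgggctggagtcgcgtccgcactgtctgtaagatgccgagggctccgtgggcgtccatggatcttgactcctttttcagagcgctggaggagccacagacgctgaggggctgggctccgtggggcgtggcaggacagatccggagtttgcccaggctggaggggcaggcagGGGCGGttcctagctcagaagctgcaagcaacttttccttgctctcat
Itgb6: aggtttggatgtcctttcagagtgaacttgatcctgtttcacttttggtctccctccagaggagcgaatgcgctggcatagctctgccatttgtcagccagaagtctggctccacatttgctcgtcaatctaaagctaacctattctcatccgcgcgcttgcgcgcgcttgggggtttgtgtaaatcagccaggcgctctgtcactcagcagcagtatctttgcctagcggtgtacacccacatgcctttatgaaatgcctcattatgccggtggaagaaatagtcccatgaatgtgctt
The *Itga3* promoter held 3 Sp1 motifs and 1 ETS motif, *Itgb1* held 1 TEAD motif 7 bases before the start and 1 Sp1 motif, *Itga2* held 1 Sp1 motif, and *Itgb6* held no match in this window. Among 27025 mouse promoters of the same length, the AP-1 motif was found in 7.92%, TEAD in 14.7%, Sp1 in 35.9% and ETS in 9.14%. These matches describe the letters and are not evidence of binding.

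Total counts were between 21735708 and 29338370 per library. The 6 basal keratinocyte markers were all present, at a summed 7359 to 16846 CPM in every library. The sum hides differences between the lines. *Krt15* had means of 6.10 and 3.48 CPM in vehicle-treated and LN332-treated MKα3− cells and 0.793 and 0.809 CPM in MKα3+ cells. In each medium 2 of the 6 had a positive log2 fold change of MKα3+ over MKα3− cells. In vehicle 0 were called higher and 1 lower, beside 10.9% and 7.56% of all genes. In LN332 1 was called higher and 2 lower, beside 11.7% and 8.92%. CPM is the count scaled to library size with factors from trimmed means of M-values (TMM). Markers of other cells were low. The 4 of 6 fibroblast markers with a row summed to between 11.4 and 39.4 CPM, the 4 endothelial markers to between 3.33 and 6.45 CPM, and the melanocyte list had a row for *Pmel* alone, at between 0.828 and 3.94 CPM. The leukocyte list had 3 of 4 markers (*Ptprc*, *Cd68* and *Lyz2*, while *Cd3e* had no row) and summed to 263 CPM in vehicle-treated MKα3+ replicate 3, 272 CPM in replicate 4 and 262 CPM in LN332-treated MKα3+ replicate 4, against 20.6 to 96.8 CPM in the other 13 libraries. All 3 are in MKα3+ groups. In these 3 libraries *Lyz2* was at 229, 237 and 237 CPM, most of the sum. *Ptprc* was at 2.90, 3.81 and 3.63 CPM there, against 0.425 to 1.60 CPM in the others. *Cd68*, at 31.4, 30.8 and 21.5 CPM there, was not raised, with 11.7 to 41.2 CPM in the others. Without these 3 libraries 9 of the 14 list genes called between the lines in vehicle and 12 of 12 in LN332 were still called. The calls that were lost are given where they occur. Leaving out these libraries also left fewer MKα3+ libraries in each medium. Calls over all genes fell from 2676 to 1902 in vehicle and from 2987 to 2399 in LN332. Whether a lost call came from other cells or from fewer libraries was not tested.

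*Itga3*, the gene of the deleted subunit, was read in every library, with 4530 to 8830 counts. It was at 285, 211, 303 and 237 CPM in vehicle-treated MKα3− cells and at 211, 312, 309 and 276 CPM in vehicle-treated MKα3+ cells. After LN332 it was at 315, 218, 317 and 221 CPM in MKα3− cells and at 272, 314, 311 and 314 CPM in MKα3+ cells. The groups overlapped, and the log2 fold change of MKα3+ over MKα3− cells was 0.09 in vehicle (95% interval -0.23 to 0.42, adjusted p = 0.694, limma-voom) and 0.20 in LN332 (95% interval -0.13 to 0.52, adjusted p = 0.349). Reads were mapped to mouse, so these counts do not report the human α3 of MKα3+ cells. Whether some reads of human α3 were counted among them was not checked. Which part of the gene was deleted is not given in the sources used here, so the counts do not check the deletion either.

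**Figure D1:**
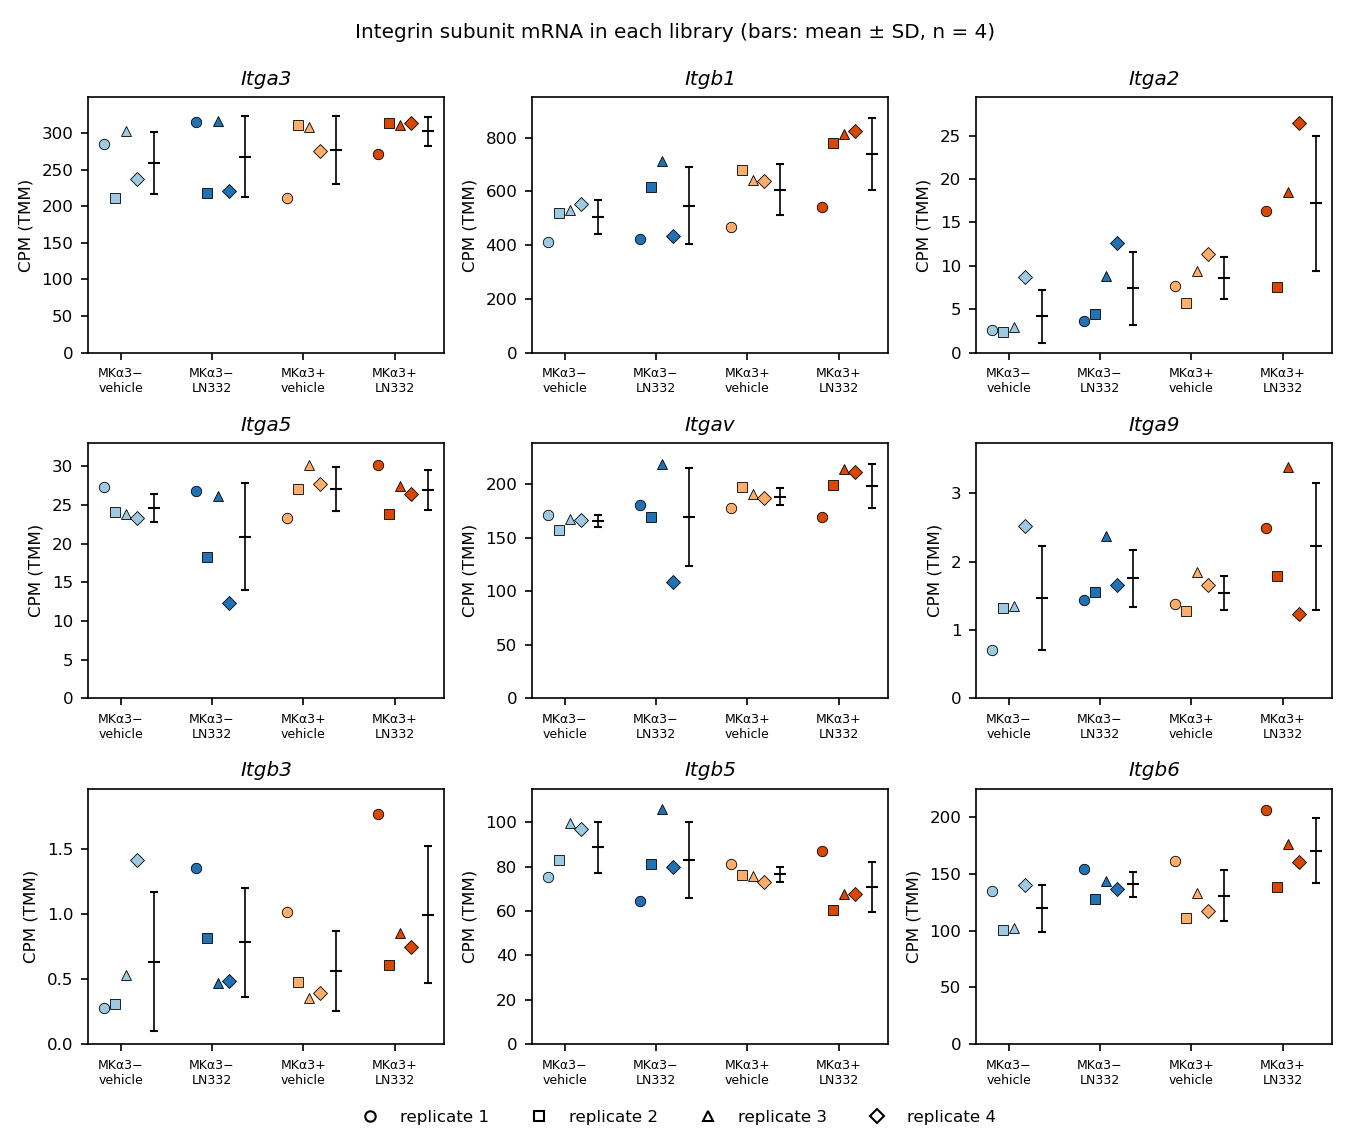
CPM of the 9 integrin subunit genes in each library, with the mean and SD of 4 replicates beside each group and marker shapes for the replicate number. Every *Itga2* value of LN332-treated MKα3+ cells exceeded that of the same-numbered LN332-treated MKα3− library, although these libraries were not shown to pair. The values of the lines overlapped for both *Itga2* and *Itga3*.

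*Itgb1*, the partner of α3, was at 412, 518, 532 and 552 CPM in vehicle-treated MKα3− cells and at 468, 678, 642 and 638 CPM in vehicle-treated MKα3+ cells. In LN332 it was at 422, 615, 714 and 433 CPM in MKα3− cells and at 542, 780, 813 and 823 CPM in MKα3+ cells. MKα3+ cells were higher in 8 of 8 same-numbered pairs, yet the groups overlapped in each medium. Between the lines in LN332 same-numbered libraries were not shown to pair. The log2 fold change between the lines was 0.26 in vehicle (SE 0.18, adjusted p = 0.297, limma-voom) and 0.46 in LN332 (SE 0.18, adjusted p = 0.0615). LN332 gave a log2 difference of 0.28 in MKα3+ cells (SE 0.18, adjusted p = 0.721) and 0.08 in MKα3− cells (SE 0.18, adjusted p = 0.896). Without the 3 libraries high in leukocyte markers the difference between the lines was 0.17 in vehicle (adjusted p = 0.693) and 0.40 in LN332 (adjusted p = 0.200).

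*Itga2*, the collagen-binding partner of β1, was the only member called in any contrast of the fit without a replicate block. A gene was called at a Benjamini-Hochberg adjusted p under 0.05 over all genes with an absolute log2 fold change over 0.5. Its level was 2.63, 2.37, 2.94 and 8.67 CPM in vehicle-treated MKα3− cells and 7.68, 5.73, 9.36 and 11.4 CPM in vehicle-treated MKα3+ cells. With LN332 it was 3.69, 4.41, 8.79 and 12.7 CPM in MKα3− cells and 16.3, 7.55, 18.5 and 26.5 CPM in MKα3+ cells. Replicate 4 was highest in every group. MKα3+ cells were higher in 8 of 8 same-numbered pairs, and LN332 was higher than vehicle in 8 of 8. As groups, however, they overlapped in each of these comparisons. Same-numbered libraries of the lines were not shown to pair in LN332, and how many of all genes reach 8 of 8 was not counted.

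In LN332-treated cells *Itga2* was 2.49-fold higher in MKα3+ than in MKα3− cells (95% interval 1.35 to 4.57), with a log2 difference of 1.31 (SE 0.42, adjusted p = 0.0225, limma-voom). This was 1 of 9 members, where 20.6% of all genes were called in the same contrast, 11.7% higher and 8.92% lower in MKα3+ cells. In vehicle 0 of 9 members were called, against 18.5% of all genes (10.9% higher and 7.56% lower), and *Itga2* differed by 1.22 on the log2 scale (SE 0.50, adjusted p = 0.0796). In a fit blocked on replicate number the vehicle difference was called, at a log2 fold change of 1.08 (adjusted p = 0.00259), where 21.1% of all genes were called. By an exact permutation test (two-sided, 70 splits, smallest possible p 0.0286) the mean CPM of the lines gave p = 0.0857 in vehicle and p = 0.0857 in LN332.

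The 3 libraries high in leukocyte markers were the highest or next to highest of their groups for *Itga2*. Without them its log2 fold change between the lines was 1.05 in LN332 (adjusted p = 0.0934, limma-voom) and 0.90 in vehicle (adjusted p = 0.338), and 0 members were called. The call in LN332 was also lost without LN332-treated MKα3− replicate 1 (adjusted p = 0.0779) or 2 (adjusted p = 0.0763), without LN332-treated MKα3+ replicate 3 (adjusted p = 0.0547) or 4 (adjusted p = 0.0758), and with DESeq2 (adjusted p = 0.0511). The part of other cells in the *Itga2* difference was not tested.

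LN332 against vehicle called 0 of 9 members in MKα3+ cells (0.187% of all genes called), 0 of 9 in MKα3− cells (0.304%) and 0 of 9 averaged over both lines (1.35%) with limma-voom. In each line edgeR and DESeq2 also called 0 members. At an unadjusted p under 0.05, 1388 genes passed in MKα3+ cells and 2023 in MKα3− cells, among them *Itga2* and *Itgb6* in MKα3+ cells and 0 members in MKα3− cells. *Itga2* had a log2 fold change of 0.92 in MKα3+ cells (SE 0.39, adjusted p = 0.443) and 0.83 in MKα3− cells (SE 0.52, adjusted p = 0.507). With the replicate block *Itga2* was called in MKα3+ cells at a log2 fold change of 0.999 (adjusted p = 0.0188) and averaged over both lines at 0.92 (adjusted p = 0.00222), while 1.51% and 2.51% of all genes were called. In MKα3− cells the blocked value was 0.84 (adjusted p = 0.0664), where 1.79% of all genes were called. Without the 3 libraries high in leukocyte markers the *Itga2* response in MKα3+ cells was 0.98 (adjusted p = 0.9998, no block), and 0 genes at all were called. The difference of the LN332 response between the lines was 0.09 (95% interval -1.29 to 1.47, limma-voom), an interval that leaves room for a large difference in either direction.

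**Figure D2:**
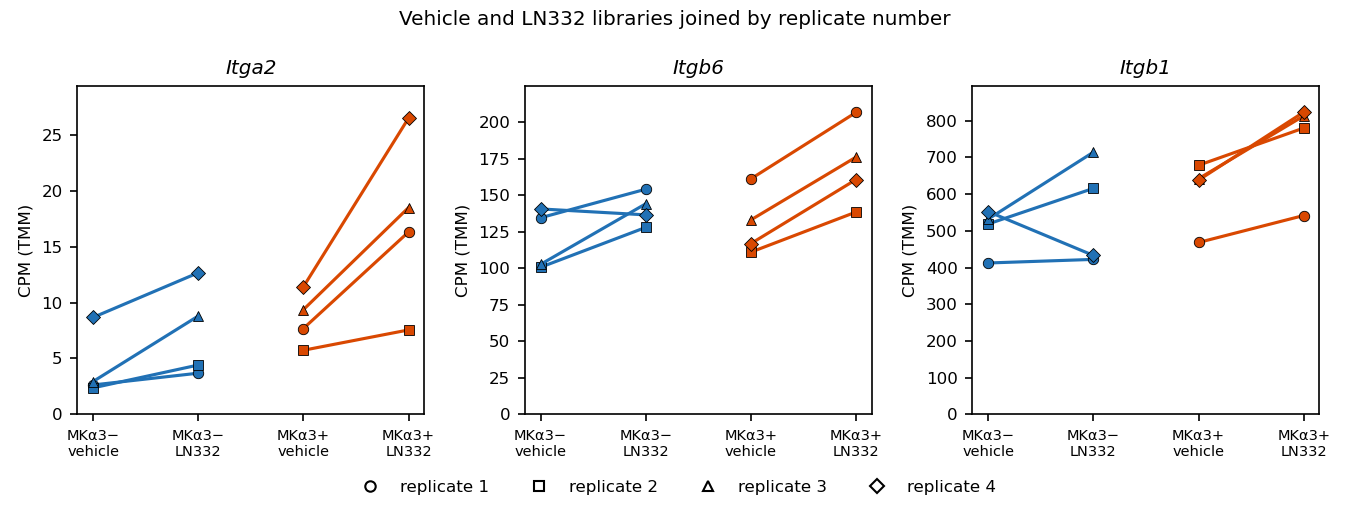
CPM of *Itga2*, *Itgb6* and *Itgb1* in vehicle and LN332, with lines joining libraries of the same replicate number within MKα3− (blue) and MKα3+ (orange) cells. *Itga2* was higher in LN332 in 8 of 8 pairs, and *Itgb6* and *Itgb1* in 7 of 8 pairs each.

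*Itga5*, which with β1 forms the fibronectin receptor, ranged from 12.4 to 30.2 CPM. In LN332 it was at 26.8, 18.3, 26.1 and 12.4 CPM in MKα3− cells and at 30.1, 23.8, 27.5 and 26.4 CPM in MKα3+ cells, with a log2 difference of 0.40 (SE 0.18, adjusted p = 0.0897, limma-voom), with the highest values of MKα3− cells inside the range of MKα3+ cells. In vehicle the log2 fold change between the lines was 0.13 (95% interval -0.22 to 0.49, adjusted p = 0.601). *Itga9*, the tenascin-C-binding partner of β1, was at 0.702 to 3.39 CPM, from 20 to 87 counts. Its log2 fold change between the lines was 0.19 in vehicle (95% interval -0.59 to 0.97) and 0.26 in LN332 (95% interval -0.46 to 0.98), and neither interval excludes 0 at this depth.

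*Itgav* was at 171, 158, 167 and 167 CPM in vehicle-treated MKα3− cells and at 178, 197, 191 and 187 CPM in vehicle-treated MKα3+ cells. These groups did not overlap (exact permutation p = 0.0286, two-sided, the smallest possible), as was so for 32.9% of all genes. In the other contrasts 0 of 9 members were without overlap, beside 26.5% of all genes between the lines in LN332, 9.66% for LN332 in MKα3+ cells and 4.95% in MKα3− cells. For *Itgav* in vehicle the difference was small, at a log2 difference of 0.18 (SE 0.15, adjusted p = 0.395, limma-voom). In LN332 the groups overlapped, with 181, 170, 219 and 109 CPM in MKα3− cells and 169, 200, 215 and 211 CPM in MKα3+ cells. Exons of *Itgav* overlap those of the opposite-strand gene *Gm13684* by 634 bases, and since no source used here says whether counting used strand, *Itgav* counts could include its reads.

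Among the partners of αv, *Itgb6* was at 135, 101, 103 and 141 CPM in vehicle-treated and 154, 128, 144 and 137 CPM in LN332-treated MKα3− cells. It was at 161, 111, 133 and 117 CPM in vehicle-treated and 207, 139, 176 and 161 CPM in LN332-treated MKα3+ cells. LN332 was higher in 7 of 8 pairs, the exception being replicate 4 of MKα3− cells. The log2 fold change was 0.39 in MKα3+ cells (SE 0.14, adjusted p = 0.343, limma-voom) and 0.32 averaged over both lines (SE 0.10, adjusted p = 0.0823). With the replicate block these had adjusted p = 0.0350 and 0.00554, but the changes stayed under the minimum of 0.5 and were not called.

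*Itgb5*, which with αv binds vitronectin, was the member with a lower mean in MKα3+ than in MKα3− cells in each medium. It was at 75.3, 82.9, 99.5 and 96.9 CPM in MKα3− cells and 81.1, 76.1, 75.9 and 72.9 CPM in MKα3+ cells in vehicle. In LN332 it was at 64.4, 81.3, 106 and 80.0 CPM and at 87.0, 60.6, 67.8 and 67.5 CPM. The groups overlapped, with log2 fold changes of -0.20 (95% interval -0.49 to 0.08, adjusted p = 0.287, limma-voom) and -0.22 (95% interval -0.51 to 0.07, adjusted p = 0.236). *Itgb3*, best known from platelets, was near the limit of what could be counted, at 0.281 to 1.77 CPM from 8 to 44 counts, and its interval in vehicle ran from -1.13 to 1.18.

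**Figure D3:**
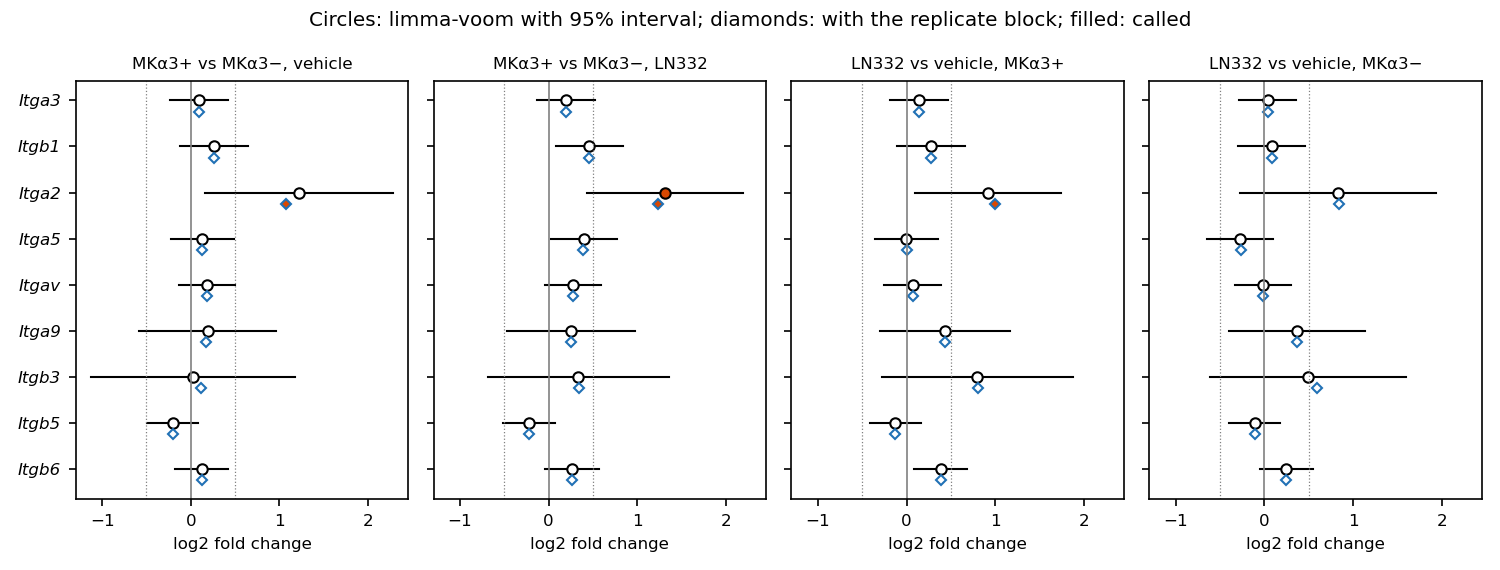
Log2 fold changes of the 9 genes in the 4 contrasts from limma-voom (circles, with 95% intervals) and with the replicate block (diamonds). Filled symbols mark calls, which *Itga2* alone has, and dotted lines mark the minimum log2 fold change of 0.5.

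Across the members, the median log2 fold change of MKα3+ over MKα3− cells was 0.13 in vehicle and 0.27 in LN332, beside medians of 0.0056 and 0.0062 over all 14474 genes. In each medium 8 of 9 members had a positive value. The median absolute log2 fold change of the members was 0.184 in vehicle and 0.273 in LN332, below the 0.257 and 0.285 of all genes. These are descriptions, and the members are not replicates. No member was called higher in MKα3− cells, beside 7.56% of all genes in vehicle and 8.92% in LN332. For 9 genes, 0 is near that share. Without the 3 libraries high in leukocyte markers, the values of the members other than *Itga2* lay between -0.17 and 0.48 in vehicle and between -0.20 and 0.51 in LN332, with 0 called.

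Levels were compared between genes as CPM per kilobase of exon. Over the 16 libraries *Itgb1* had a mean of 147, *Itga3* of 48.4, *Itgb5* of 22.4, *Itgb6* of 19.7, *Itgav* of 16.8, *Itga5* of 5.05, *Itga2* of 1.31, *Itga9* of 0.227 and *Itgb3* of 0.126. The order *Itgb1*, *Itga3*, the αv group, *Itga5*, *Itga2* held without overlap in each of the 4 groups. Within the αv group the ranges of *Itgb6* and *Itgav*, or of *Itgb5* and *Itgav* in LN332-treated MKα3+ cells, overlapped, as did those of *Itgb5* and *Itgb6* except in vehicle-treated MKα3− cells, and *Itga9* and *Itgb3* overlapped in every group. Per kilobase of coding sequence *Itgb5* was below both *Itgb6* and *Itgav*, at means of 32.2, 58.8 and 57.6, so the order within the αv group rests on the length used.

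**Figure D4:**
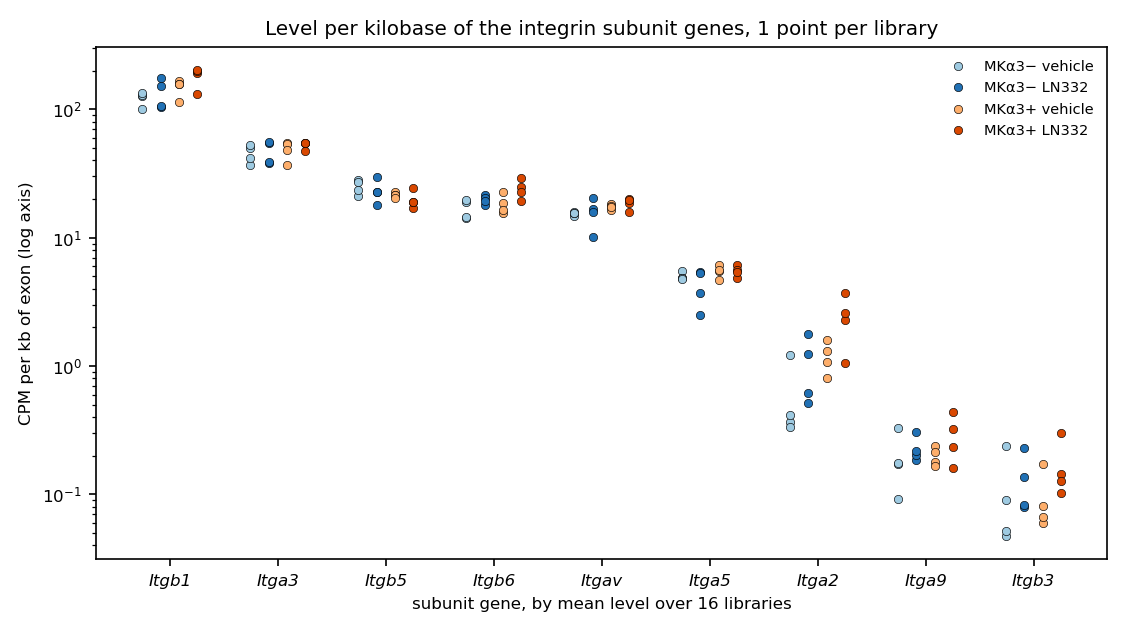
Level of each gene as CPM per kilobase of exon on a log axis, with 1 point per library and the groups side by side. *Itgb1* and *Itga3* stand above the other members in every group, at means of 147 and 48.4, and *Itga2* lies between *Itga5* and *Itga9*.

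Of the summed CPM per kilobase of *Itga2*, *Itga3*, *Itga5* and *Itga9*, *Itga3* made up 88.6% ± 1.79 (SD, n = 4) in vehicle-treated and 89.5% ± 0.397 in LN332-treated MKα3− cells, and 87.4% ± 1.47 and 86.6% ± 2.36 in MKα3+ cells. This share counts mouse *Itga3* reads whether or not they can make protein. The sum of these 4 genes over *Itgb1* was 0.422 ± 0.101 and 0.410 ± 0.132 in MKα3− cells and 0.373 ± 0.0149 and 0.345 ± 0.0535 in MKα3+ cells. Human α3 of MKα3+ cells was not measured by itself, and whether any of its reads were counted as mouse *Itga3* was not checked. The share and this ratio therefore do not compare the full α supply of the lines. Only members were summed, so other α subunit genes such as *Itga6* are left out. For αv, *Itgb3*, *Itgb5* and *Itgb6* together were 2.72 ± 0.242 and 2.90 ± 0.832 times *Itgav* in MKα3− cells and 2.29 ± 0.324 and 2.43 ± 0.668 times in MKα3+ cells. The share of *Itgb6* in that sum was 40.2% ± 5.65 and 46.1% ± 5.84 in MKα3− cells and 45.7% ± 3.22 and 54.4% ± 1.33 in MKα3+ cells. With coding length in place of exon length that share was 58.0%, 63.7%, 63.5% and 71.1% in the same order.

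The genes whose pattern over the 16 libraries was most like that of *Itga3*, by the root-mean-square difference of centred log2(CPM + 1), were *Tnpo2* (0.115), *Ulk3* (0.119) and *U2af2* (0.129) among 9637 genes. For *Itgb1* they were *Ddx3x* (0.0961), *Calu* (0.105) and *Usp24* (0.110).

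Of 17 further integrin subunit genes 12 had a row. *Itga6* and *Itgb4*, which form the hemidesmosome receptor α6β4, were not called, with log2 fold changes between the lines of -0.31 (adjusted p = 0.439, limma-voom) and -0.09 (adjusted p = 0.774) in vehicle. In vehicle 3 of 12 were higher in MKα3+ cells and 0 lower, beside 10.9% of all genes higher and 7.56% lower, and all 3 encode leukocyte integrins. *Itgam* had a log2 fold change of 3.09 (adjusted p = 0.0432), *Itgal* of 1.52 (adjusted p = 0.0493) and *Itgb2*, the β2 subunit of both, of 1.29 (adjusted p = 0.0253). In LN332 1 of 12 was called, beside 11.7% of all genes higher, namely *Itgb2* at 1.23 (adjusted p = 0.0268). *Itgam* was at 25.1, 25.5 and 27.8 CPM in the 3 libraries with the highest leukocyte markers and at 0.319 to 8.99 CPM in the others, and *Lyz2*, a myeloid gene, was at 229, 237 and 237 CPM there. Without those libraries the vehicle values were 1.94 (adjusted p = 0.140) for *Itgam*, 0.71 (adjusted p = 0.394) for *Itgal* and 0.52 (adjusted p = 0.236) for *Itgb2*, so all 3 calls were lost, while *Itgb2* in LN332 was at 0.96 (adjusted p = 0.00685) and still called. Each of the 3 vehicle calls was also lost without vehicle-treated MKα3+ replicate 3 alone, without replicate 4 alone, and in all for 9 of 16 single libraries left out for *Itgam*, 11 for *Itgal* and 4 for *Itgb2*. The call of *Itgb2* in LN332 was lost for 3 of them, LN332-treated MKα3− replicates 1 and 2 and LN332-treated MKα3+ replicate 4. The list medians were 0.0059 in vehicle and 0.18 in LN332.

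Of 19 genes of integrin ligands, all with a row, 6 were called between the lines in each medium, where 18.5% of all genes were called in vehicle and 20.6% in LN332. Of these 6, 5 were higher and 1 lower in MKα3+ cells in vehicle, and 5 and 1 in LN332. *Spp1* (osteopontin, a ligand of αv integrins) was at 0.456, 0.441, 0.744 and 0.414 CPM in vehicle-treated MKα3− cells and at 9.39, 4.69, 5.99 and 4.96 CPM in MKα3+ cells, with a log2 difference of 3.55 (SE 0.49, adjusted p = 3.20e-05, limma-voom). *Fn1* (fibronectin) was at 3.75, 7.56, 8.08 and 9.88 CPM and at 24.7, 47.7, 30.8 and 27.8 CPM, with a log2 difference of 2.19 (SE 0.32, adjusted p = 6.24e-05). The groups did not overlap for either gene, as was so for 32.9% of all genes in vehicle.

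*Thbs1* (thrombospondin-1) had a log2 fold change of 1.88 (adjusted p = 4.19e-05, limma-voom) and *Col4a1*, a collagen IV chain of basement membranes, of 1.52 (adjusted p = 3.15e-07) in vehicle. In LN332 *Spp1* had a log2 fold change of 3.52, *Fn1* of 2.30, *Thbs1* of 1.95 and *Col4a1* of 1.79, with adjusted p between 5.25e-08 and 3.57e-05. *Col4a2* and *Lamb3*, named in addition because they complete the count, had 0.99 (adjusted p = 0.000624) and -0.66 (adjusted p = 0.00195) in vehicle and 1.38 (adjusted p = 2.18e-05) and -0.76 (adjusted p = 0.000496) in LN332. *Lamb3* encodes the β3 chain of LN332 itself, and *Lama3*, which encodes its α3 chain, was not called in vehicle, at -0.39 (adjusted p = 0.0663). The list medians were 0.20 in vehicle and 0.31 in LN332.

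**Figure D5:**
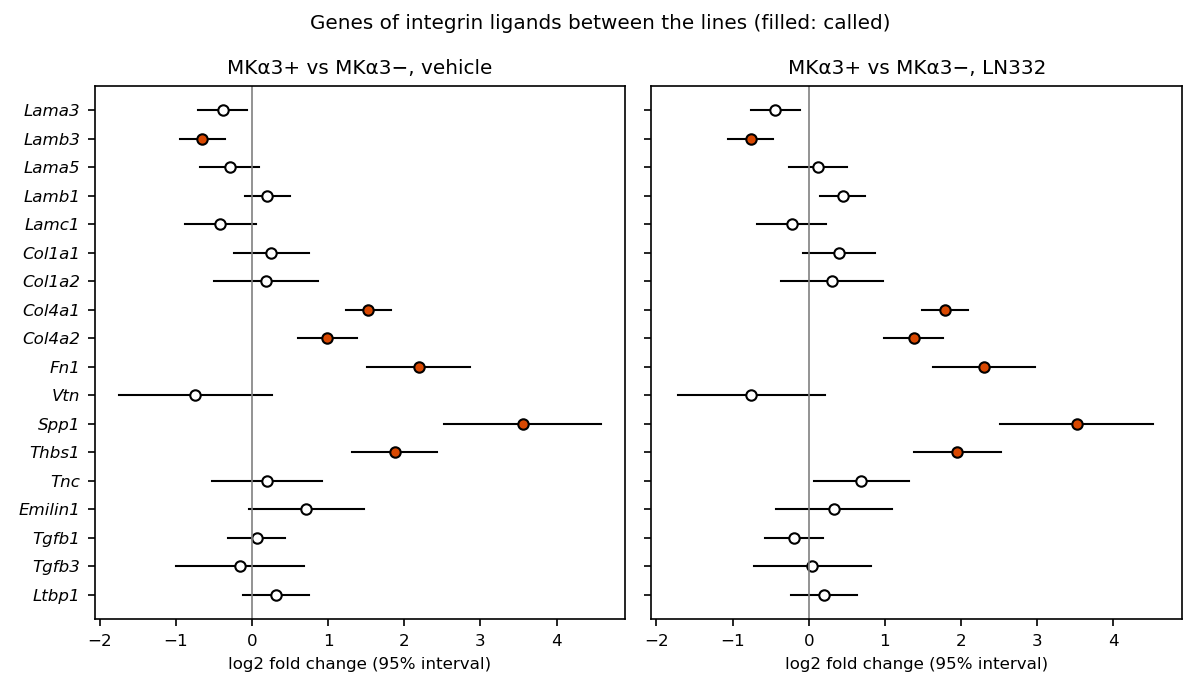
Log2 fold changes of 18 genes of integrin ligands in MKα3+ against MKα3− cells, in vehicle (left) and LN332 (right), with 95% intervals from limma-voom and filled symbols for calls. *Spp1*, *Fn1*, *Thbs1*, *Col4a1* and *Col4a2* lie to the right and *Lamb3* to the left in each panel.

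Among 14 genes of integrin activation and adhesion complexes, 2 were higher and 1 lower in MKα3+ cells in vehicle, and again 2 and 1 in LN332. With 3 of 14 called in each medium the list was near the share of all genes, 18.5% in vehicle and 20.6% in LN332. *Tln1* (talin-1) and *Fermt1* (kindlin-1), which bind β tails and activate integrins, were called in LN332 at 0.65 (adjusted p = 0.000459, limma-voom) and 0.56 (adjusted p = 0.00377), the latter falling under 0.5 without LN332-treated MKα3− replicate 2 (0.49) or MKα3+ replicate 1 (0.44). In vehicle they passed the adjusted p but not the minimum change, at 0.43 (adjusted p = 0.0108) and 0.498 (adjusted p = 0.00935), so a difference between media was not shown. *Krit1* was lower, at -0.61 in vehicle (adjusted p = 0.000106) and -0.61 in LN332 (adjusted p = 0.000114). *Apbb1ip* and *Dab2* were called in vehicle at 1.41 (adjusted p = 0.00656) and 0.58 (adjusted p = 0.00231), and without the 3 libraries high in leukocyte markers they were at 0.95 (adjusted p = 0.0775) and 0.48 (adjusted p = 0.0416), no longer called. The list medians were 0.32 in vehicle and 0.22 in LN332.

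Of 10 genes of integrin processing and recycling 9 had a row, and 1 was higher and 1 lower in each medium. These 2 of 9 were near the share of all genes called, 18.5% in vehicle and 20.6% in LN332. *Rab11fip1*, an effector of Rab11 in endosomal recycling, was at 28.4, 35.1, 29.5 and 34.4 CPM in vehicle-treated MKα3− cells and at 114, 82.0, 81.6 and 80.0 CPM in MKα3+ cells, with a log2 difference of 1.48 (SE 0.13, adjusted p = 1.30e-07, limma-voom), and of 1.496 in LN332 (adjusted p = 1.20e-07). *Snx17*, a sorting nexin that binds β1 tails and returns β1 integrins to the surface, had -0.63 in vehicle (adjusted p = 0.000227) and -0.52 in LN332 (adjusted p = 0.00122), where it came to -0.42 without LN332-treated MKα3− replicate 4 and -0.498 without LN332-treated MKα3+ replicate 2. The list medians were -0.13 in vehicle and -0.28 in LN332.

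LN332 against vehicle called 0 of the 54 genes of these 4 lists in either line with limma-voom, and 0 with edgeR or DESeq2. Of all genes, limma-voom called 0.187% in MKα3+ and 0.304% in MKα3− cells. In each line 5 of the 54 had an unadjusted p under 0.05, beside 1388 of all 14474 genes in MKα3+ and 2023 in MKα3− cells. *Tnc* (tenascin-C) was at 3.13, 4.81, 5.13 and 5.18 CPM in vehicle and 7.23, 8.04, 10.2 and 9.52 CPM in LN332 in MKα3+ cells. These 2 groups did not overlap, as was so for 9.66% of all genes, and were 0.96 apart on the log2 scale (SE 0.30, adjusted p = 0.238, limma-voom). *Tnc* was chosen after its values were seen, because with the replicate block it was called in MKα3+ cells at 0.92 (adjusted p = 0.0252), where 1.51% of all genes were called. In MKα3− cells the blocked log2 fold change was 0.46 (adjusted p = 0.219), and the difference of the responses was 0.49 (95% interval -0.46 to 1.44).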

How the data were processed

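RNA-seq counts of 16 libraries, 4 in each group, were analysed. Per the labels and the methods, the authors aligned reads to mm10 using Rsubread, summarized them by gene using featureCounts and deposited raw counts of 14474 genes, not normalized. The strand setting is not stated. Groups and replicate numbers came from the sample labels, and 0 columns belonged to other samples. Every gene had over 0.5 CPM in at least 6 libraries, so the filter of the methods (0.5 CPM in 3 libraries) removed 0 genes. The deposited counts thus held no gene below that level, and shares of all genes refer to these 14474 alone.

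Counts were normalized by TMM factors with edgeR 4.0.16 and tested with limma-voom (limma 3.58.1, R 4.3.3) as in the study's methods. The single fit of all 16 libraries with a coefficient per group was chosen here, since the methods do not state it. Adjusted p-values are Benjamini-Hochberg over all genes. Single genes were also compared by exact permutation of CPM (scipy 1.17.1). The procedure was tested on simulated counts drawn independently for each library. These lack the shared deviations of same-numbered libraries given below, so that test does not cover them. Replicates were compared by chi-square, and no pair agreed within sampling noise (smallest value per degree of freedom 5.45).

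Each replicate number occurs in all 4 groups. Deviations of same-numbered libraries from their group means correlated at 0.225 to 0.422 between the lines in vehicle, -0.077 to 0.532 between the lines in LN332, and 0.309 to 0.718 and 0.177 to 0.694 between LN332 and vehicle in MKα3+ and MKα3− cells. Every pair was over 0.1 except in the lines in LN332, so blocked values are given beside the other results where they changed a call.

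The members and the gene lists were chosen with earlier results of these data known. Named were all members, of each list the called genes (at most 4 per contrast by absolute log2 fold change), and the 3 genes most like *Itga3* and *Itgb1* among those with a mean of at least 10 CPM. Lengths came from GENCODE M21, and positions and promoters from RefSeq on GRCm38.p6. *Col1a1* and *Col1a2* stand in both the ligand and the fibroblast lists. The ligand counts cover 19 genes, of which 1 is not reported here by itself.

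The settings tried were the quasi-likelihood test of edgeR, DESeq2 1.42.0, its size factors in limma-voom, library size alone, no filter, at least 10 counts in every library, the replicate block, sample quality weights, the compared groups only, other minimum fold changes, coding length, and each library left out. Leaving out the 3 libraries with over 200 CPM of leukocyte markers, other normalizations of the permutation test and the alternatives for list genes were added after seeing the data.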

Additional observations from a re-analysis of the deposited data

Results flagged for a closer look

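In 36 groups of 4 libraries, from 9 genes in 4 groups, the highest and the lowest library were checked for a gap to the rest, and 3 stood apart where chance gives about 1.8. LN332-treated MKα3+ replicate 1 was low for *Itga3*, at 272 CPM against 311 to 314 CPM in the others, and for *Itgb1*, at 542 CPM against 780 to 823 CPM. Vehicle-treated MKα3− replicate 4 was high for *Itga2*, at 8.67 CPM against 2.37 to 2.94 CPM. Its leukocyte markers summed to 27.6 CPM, the lowest of its group. Without it the log2 fold change of *Itga2* between the lines in vehicle was 1.65 (adjusted p = 0.0345, limma-voom).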

How the results depend on the processing

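The count of members called between the lines in vehicle was 0, and was 1, *Itga2*, with the replicate block, with sample quality weights and with only the compared groups. In LN332 it was 1, and was 0 with DESeq2 (*Itga2* adjusted p = 0.0511) and 0 without the 3 libraries high in leukocyte markers. For LN332 in MKα3+ cells and averaged over both lines it was 0, and 1 and 1 with the replicate block, which changed no other member's call. Between the lines in LN332, where same-numbered libraries were not shown to pair, the block gave *Itgb1* a value of 0.46 with adjusted p = 0.0028, under the minimum of 0.5. Over single libraries left out, the vehicle count was 0 to 1 (1 without vehicle-treated MKα3− replicate 4 or LN332-treated MKα3+ replicate 2) and the LN332 count 0 to 3. The latter was 0 without LN332-treated MKα3− replicate 2 or LN332-treated MKα3+ replicates 3 or 4, 2 (*Itgb1*, *Itga2*) without LN332-treated MKα3+ replicate 1, and 3 (*Itgb1*, *Itga2*, *Itga5*) without LN332-treated MKα3− replicate 3. Without LN332-treated MKα3− replicate 1 it was 1, *Itga5* in place of *Itga2*. Calls over all 14474 genes moved too. Between the lines in vehicle they were 2676, and 3056 with the block, 3249 with quality weights and 2707 with only the compared groups. In LN332 they were 2987, and 3170 with DESeq2 and 2399 without the leukocyte-high libraries. Over single libraries left out they spanned 2345 to 2754 in vehicle and 2590 to 3338 in LN332. The *Itga2* difference between the lines kept its direction in every alternative, with adjusted p from 0.000343 to 0.0934 in LN332 and from 0.00259 to 0.338 in vehicle. The causes were not tested.

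Of 1380 recomputed log2 fold changes of members, 49 changed sign, 0 of them called in either fit. Between the lines in vehicle *Itgb3* became -0.17 with edgeR, -0.18 with DESeq2 and -0.33 with quality weights (-0.30 to 0.51 over libraries left out), and *Itga9* became -0.0011 without the leukocyte-high libraries (-0.11 to 0.49). For LN332 in MKα3+ cells *Itga5* became 0.00022 with DESeq2's size factors, 0.0010 with the replicate block and 0.11 without the leukocyte-high libraries (-0.075 to 0.051), and *Itgav* -0.0064 with library size alone. In MKα3− cells *Itga3* became -0.040 with library size alone and -0.064 with quality weights (-0.057 to 0.12), *Itgav* 0.033 with edgeR, 0.030 with DESeq2 and 0.065 with quality weights (-0.15 to 0.18), and *Itgb1* spanned -0.056 to 0.19. Averaged, *Itgav* became -0.049 with library size alone (-0.042 to 0.13). In the interaction *Itgb3* became -0.042 without the leukocyte-high libraries (-0.18 to 0.64), and over libraries left out *Itga3* spanned -0.019 to 0.20, *Itga2* -0.34 to 0.43, *Itgav* -0.11 to 0.22, *Itga9* -0.24 to 0.37 and *Itgb5* -0.13 to 0.11.

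With coding length the αv partners were 1.63, 1.81, 1.43 and 1.61 times *Itgav* in vehicle-treated and LN332-treated MKα3− and then MKα3+ cells, and *Itgb6* made up 58.0%, 63.7%, 63.5% and 71.1% of them. Over all genes the LN332 counts moved most: 27 in MKα3+ cells became 4 with edgeR, 121 with DESeq2, 3 with library size alone, 218 with the replicate block, 454 with quality weights, 107 with only the compared groups and 0 without the leukocyte-high libraries, and 44 in MKα3− cells became 165, 74, 259, 123, 1 and 1 with DESeq2 and the same last 5. Averaged, 196 became 363 with the block, 464 with quality weights and 28 without those libraries. Over single libraries left out these counts spanned 0 to 47 (0 for 4 libraries, vehicle-treated MKα3+ replicates 2 and 4 and LN332-treated MKα3+ replicates 3 and 4), 1 to 150 (1 without vehicle-treated MKα3− replicate 3 and 150 without LN332-treated MKα3− replicate 1) and 114 to 321 (without the same 2 libraries). Library size alone turned the averaged split from 133 higher and 63 lower to 84 and 174. A minimum log2 fold change of 1 left 1362, 1345, 5, 6 and 13 genes, and none gave 4115, 4654, 30, 57 and 637. *Itga9* and *Itgb3* are limited by depth.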
